A study of Mus musculus with 8 samples.

Results

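The genes described here encode the subunits and accessory proteins of the Polycomb repressive complexes and the enzymes that remove their marks. They are 33 genes chosen by symbol from the 32499 genes of the count table, all 33 were found, and all 33 passed the filter on low counts. They were sorted by role into 5 subunits of the PRC2 core, 5 accessory subunits of PRC2, 12 subunits of canonical PRC1, 7 subunits of variant PRC1 and 4 opposing enzymes. Ring1 and Rnf2, the catalytic subunits of every PRC1 complex, were placed with canonical PRC1.

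The samples are RNA-seq libraries of neural progenitor cells, sorted with the dye NeuroFluor CDr3 from dissociated neural tubes of C57BL/6 mouse embryos at embryonic day 14. There were 4 libraries labelled 53BP1 KO, called the KO-labelled set below, and 4 labelled Control. Per the labels' protocols, the control embryos were wild-type. The KO embryos came from males with CRISPR-made in-frame deletions in 53bp1 that were mated to Trp53bp1tm1Jc females, and embryos were sequenced to find those with a deletion and the KO allele. 53BP1, the product of Trp53bp1, is a chromatin protein of DNA double-strand break repair, and the title of the study pairs it with UTX, the product of Kdm6a, a demethylase of the histone mark that PRC2 makes. The labels do not say whether cells were profiled directly after sorting or after culture in differentiation medium.

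PRC2 methylates histone H3 at the residue known as H3K27, and PRC1 places ubiquitin on histone H2A. Both marks go with silencing of developmental genes, and in neural progenitors Polycomb complexes are known for holding neuronal and glial genes back until their time in development. Canonical PRC1 reads the PRC2 mark through a Cbx subunit, whereas variant PRC1 carries Rybp or Yaf2 in place of Cbx and can reach unmethylated CpG islands without that mark.

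Trp53bp1 itself was at a like level in both groups. It had 497, 487, 417 and 412 counts in controls 1 to 4 and 617, 388, 341 and 600 counts in KO-labelled 1 to 4, which is 26.8 ± 0.349 against 27.1 ± 6.36 CPM, the read count scaled by library size (SD, n = 4 each), with a log2 fold change of 0.01 (95% interval -0.29 to 0.32, adjusted p = 0.96; all such values are from the edgeR quasi-likelihood fit with Benjamini-Hochberg adjustment). The table holds 1 count for the whole gene and none for the deleted bases, so the labels are not checked by this level. Sex coincided with group: Xist counts were 23853 to 26134 in each control and 9 to 16 in the KO-labelled set, while Ddx3y had no count in any control and 579 to 1064 counts in each KO-labelled library. No difference below can be told apart from a difference of sex. None of the 33 genes lies on the X or Y chromosome, while 6 lie on chromosome 11 and 3, Phf19, Bmi1 and Asxl1, on chromosome 2 with Trp53bp1. The labels do not say that replicates came from separate embryos, so the p-values rest on a library-to-library spread that could be technical only. Total counts ran from 15343046 to 18189045 for controls and from 11081419 to 24339621 for the KO-labelled set, and counts of the 33 genes ran from 35 (Yaf2) to 9608 (Rbbp4) in a library.

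Polycomb genes passed the test about as often as genes at large. In the KO-labelled libraries 3 of 33 rose (Ezh1, Ring1 and Kdm6b), 6 fell (Ezh2, Eed, Mtf2, Cbx2, Cbx6 and Kdm2b) and 24 did not pass the test at an adjusted p of 0.05. The share that passed, 27.3%, was near the background of 30% among all 15021 genes tested, of which 16.1% rose and 13.9% fell. The median log2 fold change was -0.04 over the 33 genes and 0.00 over all genes tested. The groups did not overlap in CPM for 10 of the 33 genes, 3 with the KO-labelled libraries higher and 7 lower, beside 29.9% of all genes. Mtf2, Cbx2 and Ezh1 changed most. Of their close paralogs, Ezh2 fell where Ezh1 rose, and Phf1 and Phf19 did not pass where Mtf2 fell. Of the other Cbx genes among the 33, Cbx6 fell as Cbx2 did, while Cbx7 and Cbx8 did not pass.

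**Figure D1:**
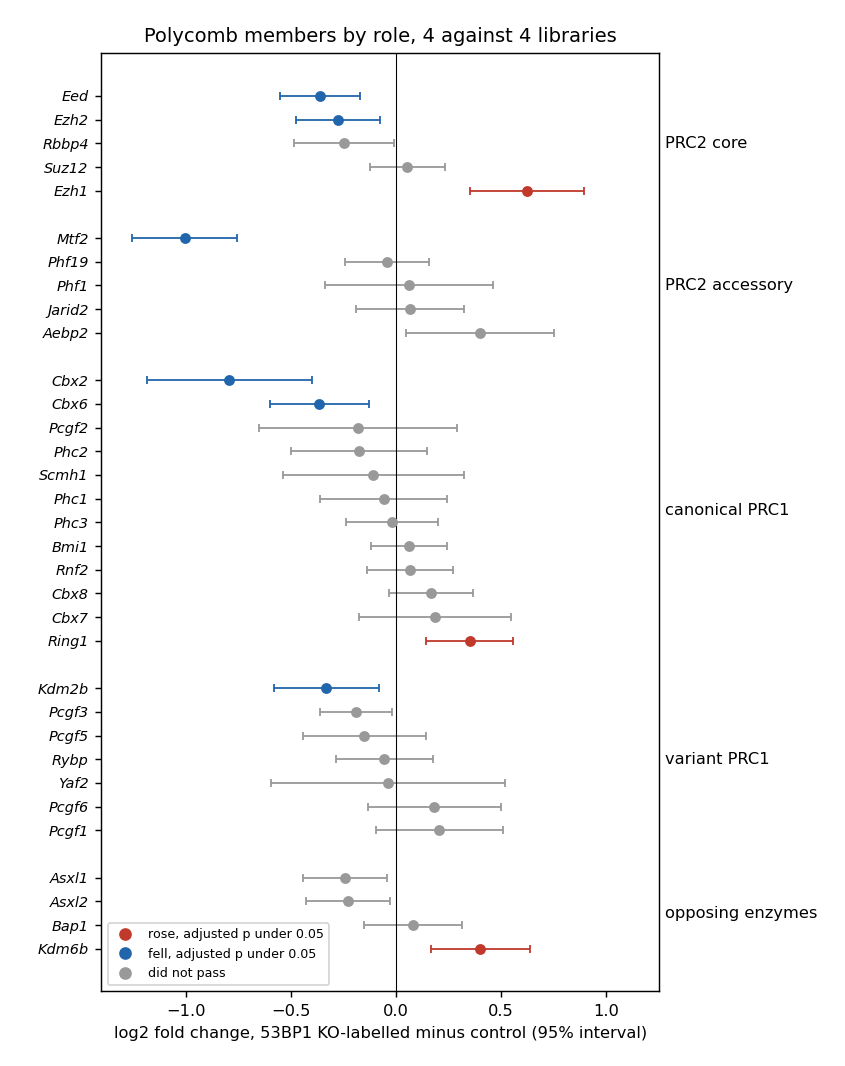
Log2 fold change of each of the 33 Polycomb genes, KO-labelled minus control (x axis), by role (y axis). Points are edgeR estimates from 4 against 4 libraries, bars are 95% intervals, and colour marks genes past an adjusted p of 0.05. Mtf2 lies farthest to the left (interval -1.25 to -0.76) and Ezh1 farthest to the right (0.35 to 0.89).

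Promoter sequence gives a view of these genes that the choice of members did not use. RefSeq windows of 300 bases, from 250 before to 50 after the annotated start in GRCm38.p6, were found for 28 of the 33 genes, in 40 windows. The median window held 24 CpG dinucleotides, against 20 in the windows of all genes tested that had one. Ezh1 and Ezh2 encode the alternative methyltransferase subunits of PRC2, and Mtf2 encodes a subunit that binds CpG-rich DNA. Their last 120 bases before the start are shown because Mtf2 had the largest fall and Ezh1 the largest rise of the 33 genes, and Ezh2 is the paralog of Ezh1, with each CpG in capitals. Mtf2 had 15 CpGs in this stretch (plus strand, chr5:108065554-108065673), Ezh1 had 11 (minus strand, chr11:101226464-101226583) and Ezh2 had 10 (minus strand, chr6:47595031-47595150).
Mtf2: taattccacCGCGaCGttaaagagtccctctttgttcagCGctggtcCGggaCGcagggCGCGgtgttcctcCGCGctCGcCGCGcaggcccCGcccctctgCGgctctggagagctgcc
Ezh1: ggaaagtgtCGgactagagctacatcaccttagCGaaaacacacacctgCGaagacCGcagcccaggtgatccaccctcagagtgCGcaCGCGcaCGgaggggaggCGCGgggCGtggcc
Ezh2: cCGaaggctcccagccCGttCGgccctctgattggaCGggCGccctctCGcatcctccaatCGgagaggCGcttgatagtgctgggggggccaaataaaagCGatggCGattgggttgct

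Ezh2 and other PRC2 genes are known targets of E2F factors, which drive genes of DNA replication. An exact match on either strand to TTTCCCGC, TTTCGCGC, TTTGCCGC or TTTGGCGC, words of the E2F type, was present in the windows of 3 of the 28 genes (10.7%), against 4.6% of the 10665 tested genes with a window. The words share letters and can overlap, so only presence was counted. The 3 genes were Ezh2, Suz12 and Phf19, and only Ezh2 among them passed the expression test. The match in Ezh2 lies at bases 4 to 11 after the start (minus strand, chr6:47595009-47595038), that in Suz12 ends 212 bases before it (plus strand, chr11:79992876-79992905) and that in Phf19 ends 201 bases before it (minus strand, chr2:34914166-34914195). Each is shown in 30 bases of its own strand with the match in capitals, and the Phf19 match is the reverse complement of the word.
Ezh2: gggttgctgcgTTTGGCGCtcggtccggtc
Suz12: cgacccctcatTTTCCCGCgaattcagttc
Phf19: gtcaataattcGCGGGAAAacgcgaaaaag
A second word, TTTGAA, the core of the cell-cycle element called CHR, was in the windows of 7 of the 28 genes (25.0%) and of 14.2% of tested genes with a window. Among the genes that changed it was present for Eed and Mtf2. For Mtf2 it lay only in the window of another annotated start (chr5:108077915-108078214), which holds 2 CpGs. The Mtf2 window whose bases are shown above has no match. For both kinds of word a gene was counted if any of its windows held a match, and genes differ in their number of windows. Per window, TTTGAA was in 17.5% of the 40 windows and 11.9% of the 13629 windows of tested genes. For the E2F type the shares per window were 7.5% and 3.8%. A match is a description of the window and not a binding site.

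In the PRC2 core the alternative methyltransferases moved in opposite directions. Ezh1, the subunit known for its lower enzymatic activity and its expression in non-dividing cells, had 9.87, 10.2, 8.96 and 9.18 CPM in controls 1 to 4 and 14.9, 17.2, 12.1 and 14.9 CPM in KO-labelled 1 to 4. Every KO-labelled library lay above every control, with KO-labelled 3 the nearest to them. Ezh1 rose 1.54-fold (adjusted p = 0.002 by edgeR), a log2 fold change of 0.62 with an SE of 0.13, and it passed under all alternatives tried. Ezh2, the main methyltransferase of dividing progenitors, had 44.7, 52.1, 49.5 and 50.3 CPM among controls and 40.4, 44.3, 38.1 and 39.7 CPM in the KO-labelled set. These groups did not overlap either, but control 1 and KO-labelled 2 were almost level. Ezh2 fell by 0.28 on the log2 scale (SE 0.09, adjusted p = 0.0357 by edgeR). That call depended on single libraries. The adjusted p was 0.1 when control 2 was left out and 0.0762 for control 3, and it was 0.0952, 0.0739 and 0.0913 for KO-labelled 1, 3 and 4 in turn. With no low-count filter the call was lost as well (0.277; range over the alternatives with all libraries 0.00741 to 0.277). The fit with no such filter called 15.2% of the genes it tested, against 30% in the main fit.

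Within each library the balance of this pair needs no scaling between libraries. The log2 ratio of Ezh2 to Ezh1 counts was 2.18, 2.35, 2.47 and 2.45 among controls and 1.44, 1.37, 1.65 and 1.41 in the KO-labelled set, or 2.36 ± 0.133 against 1.47 ± 0.125 (SD, n = 4 each). The lowest control lay above the highest KO-labelled library. After division by exon length, Ezh1 made up 14.9% ± 1.19 of the summed level of the pair among controls and 24.5% ± 1.57 in the KO-labelled set, so Ezh2 remained the more abundant transcript in all 8 libraries.

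Eed, the subunit that binds trimethylated H3K27 and stimulates the enzyme, had 36.1, 37.2, 40.9 and 38.0 CPM among controls and 29.1, 29.2, 29.9 and 30.1 CPM in the KO-labelled set. The KO-labelled values were the tightest of any of the 33 genes, with a coefficient of variation of 1.75%, and all lay below the controls. Eed fell by 0.36 on the log2 scale (SE 0.09, adjusted p = 0.00691 by edgeR), and the call held without any single library. It was lost without a low-count filter (adjusted p = 0.0973; range over the alternatives with all libraries 0.00174 to 0.0973). Suz12, the scaffold of the complex, had 83.5 ± 4.27 CPM among controls and 86.5 ± 4.75 CPM in the KO-labelled set. Its log2 fold change was 0.05 (95% interval -0.13 to 0.23, adjusted p = 0.678 by edgeR), so a change as large as that of Eed lies outside the interval. Rbbp4, a histone chaperone shared with other chromatin complexes, was the most abundant of the 33 genes, at 56.9 ± 5.92 CPM per kilobase of exon among controls. It had 497 ± 51.8 against 419 ± 59.4 CPM and did not pass (-0.25, adjusted p = 0.109 by edgeR), except without KO-labelled 3, where the adjusted p was 0.034 and the log2 fold change -0.33.

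Among the accessory subunits of PRC2, Mtf2 showed the largest change of all 33 genes. Mtf2, also known as Pcl2, is one of the Polycomb-like proteins that bring PRC2 to CpG islands. It had 36.0, 44.8, 48.0 and 42.7 CPM among controls and 20.5, 25.0, 19.4 and 20.7 CPM in the KO-labelled set. The highest KO-labelled library was well below the lowest control. Mtf2 fell 2.01-fold (adjusted p = 1.87e-05 by edgeR), with a 95% interval of its log2 fold change from -1.25 to -0.76, and only 3.9% of the genes tested had a lower log2 fold change. It passed under every alternative, with a log2 fold change between -1.09 and -0.94.

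The other Polycomb-like genes did not move with it. Phf19 (Pcl3) had 47.7 ± 4.31 CPM among controls and 46.3 ± 1.67 CPM in the KO-labelled set (log2 fold change -0.04, 95% interval -0.24 to 0.16). Phf1 (Pcl1) was low, at 4.28 ± 0.597 and 4.52 ± 0.966 CPM (0.06, 95% interval -0.34 to 0.46), and 39.3% of its exonic bases overlap genes of the opposite strand in GENCODE M21, so its count is uncertain without knowledge of the strand setting. Per length, Mtf2 made up 41.2% ± 3.77 of the summed level of the 3 genes among controls and 26.4% ± 2.12 in the KO-labelled set, while Phf19 went from 52.0% ± 3.99 to 64.6% ± 3.73.

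**Figure D2:**
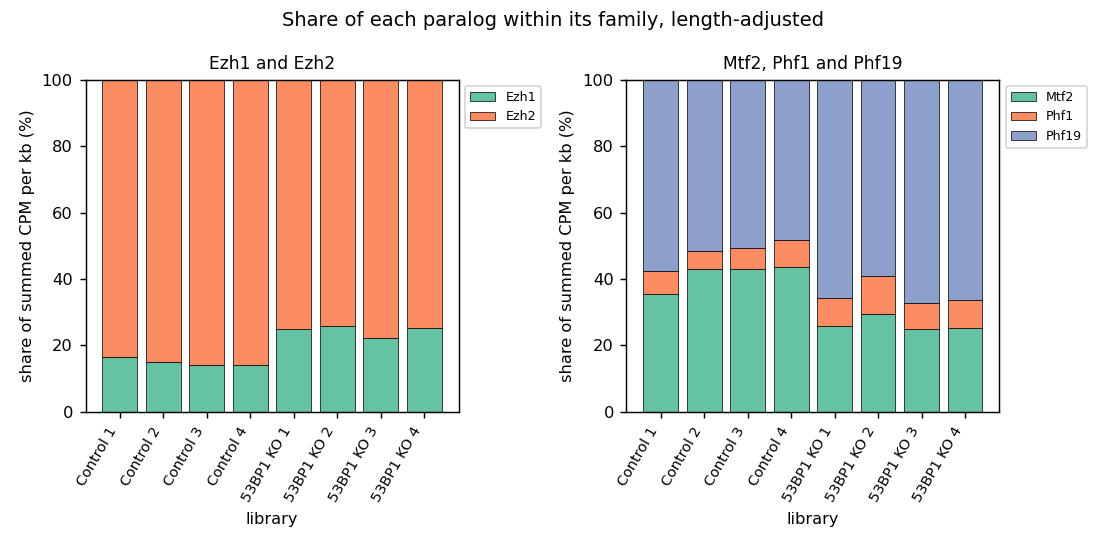
Share of each paralog in the summed CPM per kilobase of exon of its family (y axis, percent) in each library (x axis), for Ezh1 with Ezh2 (left) and for the Polycomb-like genes Mtf2, Phf1 and Phf19 (right). The Ezh1 share is between 14.0% and 16.5% among controls and between 22.2% and 25.8% in the KO-labelled set, and the Mtf2 share is between 35.6% and 43.6% and between 25.0% and 29.5%.

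The remaining accessory genes mark the other form of PRC2. Jarid2, which helps recruit the complex, had a log2 fold change of 0.07 (95% interval -0.19 to 0.32). Aebp2, its usual partner, had 26.3, 23.4, 27.7 and 15.5 CPM among controls and 27.5, 28.6, 28.3 and 38.0 CPM in the KO-labelled set. One low control and one high KO-labelled library, both of them replicate 4, carry much of its difference of 0.40, which did not pass (adjusted p = 0.0808 by edgeR) and was 0.24 without control 4 and 0.27 without KO-labelled 4. It passed with limma voom with quality weights (adjusted p = 0.0456), a fit that called 40.6% of all genes tested, and without a low-count filter (0.00345; range over the alternatives with all libraries 0.00345 to 0.108).

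**Figure D3:**
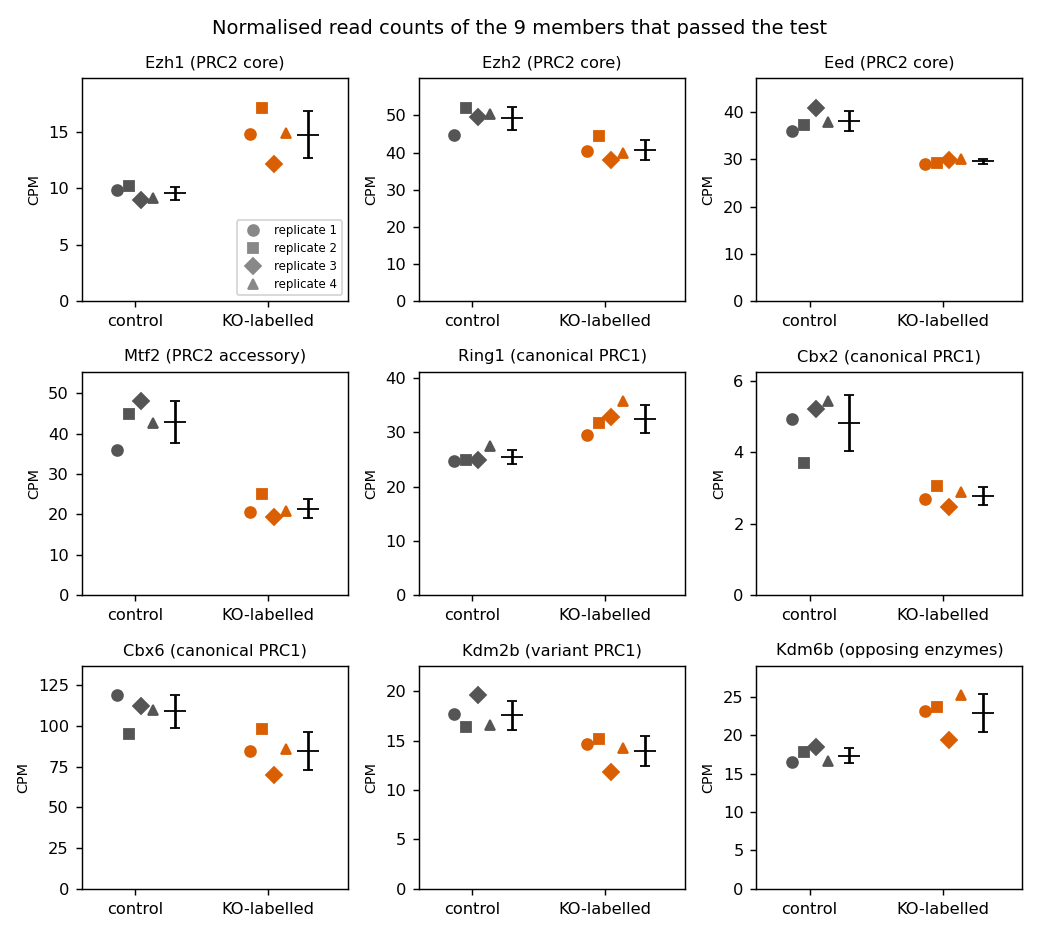
Normalised read counts (CPM, y axis, from 0) of the 9 Polycomb genes that passed the test, in the 4 control and 4 KO-labelled libraries. Symbols stand for replicates, and the bars beside them for mean ± SD. The groups are apart in all panels except Cbx6, where control 2 (94.8 CPM) lies below KO-labelled 2 (98.3 CPM).

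In canonical PRC1 the differences lay in the Cbx subunits and in Ring1. Cbx2, a chromodomain subunit that compacts chromatin, had 4.93, 3.69, 5.22 and 5.43 CPM among controls and 2.71, 3.05, 2.48 and 2.89 CPM in the KO-labelled set. The groups were apart although the gene is weakly expressed. Cbx2 fell 1.73-fold (adjusted p = 0.0047 by edgeR), a log2 fold change of -0.79 with an SE of 0.18, and it passed under every alternative. Cbx6, another chromodomain paralog, had 119, 94.8, 112 and 110 CPM among controls and 84.9, 98.3, 69.7 and 86.1 CPM in the KO-labelled set, with control 2 and KO-labelled 2 crossing. It fell by 0.36 on the log2 scale (SE 0.11, adjusted p = 0.0214 by edgeR). The adjusted p was 0.0587 when control 1 was left out and 0.054 for control 3, and it was 0.0565, 0.0509 and 0.0503 for KO-labelled 1, 3 and 4 in turn. The call was also lost without a low-count filter (0.0507; range over the alternatives with all libraries 0.0121 to 0.0507). Cbx6 shares exonic sequence with the gene Npcd on the same strand in GENCODE M21, so its count depends on how shared reads were assigned.

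The remaining Cbx genes on the list did not pass. Cbx8 had 41.0 ± 0.676 CPM among controls, the tightest control values of the 33 genes, and 46.0 ± 4.23 CPM in the KO-labelled set (0.17, 95% interval -0.03 to 0.37). Cbx7, known from stem cells and from repression of the Cdkn2a locus, had 4.69 ± 0.69 and 5.37 ± 0.758 CPM (0.18, 95% interval -0.18 to 0.55). Cbx2 and Cbx8 are neighbouring protein-coding genes on chromosome 11 in RefSeq.

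Of the summed level per length of the 4 Cbx genes on the list, Cbx2 made up 4.85% ± 0.648 among controls and 2.97% ± 0.224 in the KO-labelled set, without overlap. The share of Cbx6 was 44.0% ± 2.33 and 36.3% ± 4.80, that of Cbx8 48.0% ± 2.60 and 56.9% ± 5.22, and that of Cbx7 3.11% ± 0.459 and 3.76% ± 0.454, and these 3 shares overlapped between the groups. Cbx8 led the 4 genes in 3 of 4 controls and in all 4 KO-labelled libraries.

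Ring1 and Rnf2 encode the E3 ubiquitin ligases of PRC1, of which the Rnf2 product (RING1B) is known as the main one in embryonic cells. Ring1 had 24.7, 25.0, 24.8 and 27.4 CPM among controls and 29.4, 31.8, 32.8 and 35.7 CPM in the KO-labelled set, all above the controls. It rose 1.27-fold (log2 fold change 0.35 with an SE of 0.10, adjusted p = 0.0147 by edgeR), and the call was lost without KO-labelled 4 (0.29, adjusted p = 0.0667). Rnf2 had 29.9 ± 1.77 and 31.3 ± 2.01 CPM (0.07, 95% interval -0.14 to 0.27). Per length Ring1 made up 52.0% ± 1.81 of the pair among controls and 56.8% ± 3.08 in the KO-labelled set, and these shares overlapped.

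The other canonical subunits did not pass. Bmi1, the PCGF subunit known for neural stem cell self-renewal, had 73.8 ± 3.14 CPM among controls and 76.9 ± 5.02 CPM in the KO-labelled set, and its interval of -0.12 to 0.24 was among the narrowest. Pcgf2 (Mel18), the alternative to Bmi1, was at 3.11 ± 0.429 and 2.78 ± 0.69 CPM, and its interval ran from -0.65 to 0.29. Phc1, Phc2 and Phc3 encode the polyhomeotic subunits that link PRC1 complexes through their SAM domains. Phc3 held 71.2% ± 2.15 of their summed level per length among controls and 72.6% ± 2.21 in the KO-labelled set, and the log2 fold changes of the 3 genes were between -0.17 and -0.02. Scmh1, a further SAM-domain partner, had the widest spread within the KO-labelled set of any of the 33 genes (coefficient of variation 28.3%), with 5.41 CPM in KO-labelled 3 and 11.3 CPM in KO-labelled 2.

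In variant PRC1, 1 of 7 genes passed (14.3%, beside 30% of all genes tested), too few genes to compare the shares. Kdm2b, whose CXXC domain takes a Pcgf1-containing PRC1 to unmethylated CpG islands, had 17.7, 16.4, 19.6 and 16.6 CPM among controls and 14.7, 15.2, 11.8 and 14.3 CPM in the KO-labelled set. The groups did not overlap, and KO-labelled 3 was the lowest. Kdm2b fell by 0.33 on the log2 scale (SE 0.12, adjusted p = 0.0444 by edgeR), the call nearest the threshold. When controls 1, 2 and 3 were left out in turn the adjusted p was 0.0746, 0.0579 and 0.136, and for KO-labelled 1, 3 and 4 it was 0.0805, 0.113 and 0.0859. The call was lost with DESeq2 (0.0604) and without a low-count filter (0.233; range over the alternatives with all libraries 0.0247 to 0.233). Like Cbx6, Kdm2b shares exonic sequence with a gene on the same strand in GENCODE M21, Gm44574, so its count also depends on how shared reads were assigned.

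Pcgf3 was the most abundant PCGF transcript per length, at 23.7 ± 1.21 CPM per kilobase among controls, ahead of Bmi1 at 18.6 ± 0.789. It had 231, 218, 241 and 216 CPM among controls and 198, 202, 188 and 206 CPM in the KO-labelled set, with no overlap, yet did not pass (-0.19, SE 0.08, adjusted p = 0.0847 by edgeR). It passed with upper-quartile scaling (0.037) and with weighted limma voom (0.0419; range over the alternatives with all libraries 0.037 to 0.526). Its share of the 6 PCGF genes per length was 47.3% ± 1.48 and 42.7% ± 2.16, without overlap. Pcgf1 (0.21), Pcgf6 (0.18) and Pcgf5 (-0.15) did not pass. Rybp and Yaf2, the alternative adaptors that stimulate H2A ubiquitination, had log2 fold changes of -0.06 and -0.04. Yaf2 had between 2.26 and 4.77 CPM, with the widest spread of the 33 genes among the controls (34.7%), and its interval ran from -0.59 to 0.52.

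Of the enzymes that act against Polycomb, Kdm6b passed. Kdm6b (JMJD3), an H3K27 demethylase related to UTX and known as an inducible gene, had 16.5, 17.7, 18.4 and 16.6 CPM among controls and 23.2, 23.7, 19.4 and 25.2 CPM in the KO-labelled set. All KO-labelled values were above the controls, with KO-labelled 3 close to them. It rose 1.32-fold (log2 fold change 0.40 with an SE of 0.11, adjusted p = 0.0131 by edgeR), and the call was lost without KO-labelled 4 (0.34, adjusted p = 0.0613). Kdm6a, the gene of UTX on the X chromosome, fell from 34.8, 40.1, 44.0 and 39.1 CPM to 22.6, 28.0, 19.3 and 21.6 CPM (-0.79, adjusted p = 0.000217 by edgeR). Its Y-linked relative Uty rose from between 0.323 and 1.29 CPM to between 23.9 and 28.7 CPM. Kdm6a and Uty are sex-linked, and sex coincided with group.

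Bap1 is the deubiquitinase that removes the PRC1 mark from H2A, and Asxl1 and Asxl2 are its alternative partners. Bap1 had 26.7 ± 1.91 and 28.3 ± 3.28 CPM (0.08, 95% interval -0.15 to 0.31). Asxl1 had 171, 173, 179 and 153 CPM among controls and 149, 134, 128 and 161 CPM in the KO-labelled set, and control 4 and KO-labelled 4 crossed. Its log2 fold change of -0.24 did not pass (adjusted p = 0.0641 by edgeR). It passed without control 4 (-0.30, adjusted p = 0.0253) or KO-labelled 4 (-0.31, 0.0462). Asxl2 had 131, 149, 157 and 128 CPM among controls and 127, 122, 109 and 123 CPM in the KO-labelled set. The lowest control and the highest KO-labelled library were almost level, so the groups were only just apart. Its log2 fold change of -0.23 did not pass (adjusted p = 0.0791 by edgeR) except without control 4 (-0.28, 0.0311). With upper-quartile scaling both passed as lower (adjusted p = 0.0267 for Asxl1 and 0.0406 for Asxl2), as they did with weighted limma voom (0.0269 and 0.0158, with its higher share of calls over all genes). Asxl1 held 72.0% ± 1.21 and 71.7% ± 1.42 of their summed level per length, a difference within the spread.

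**Figure D4:**
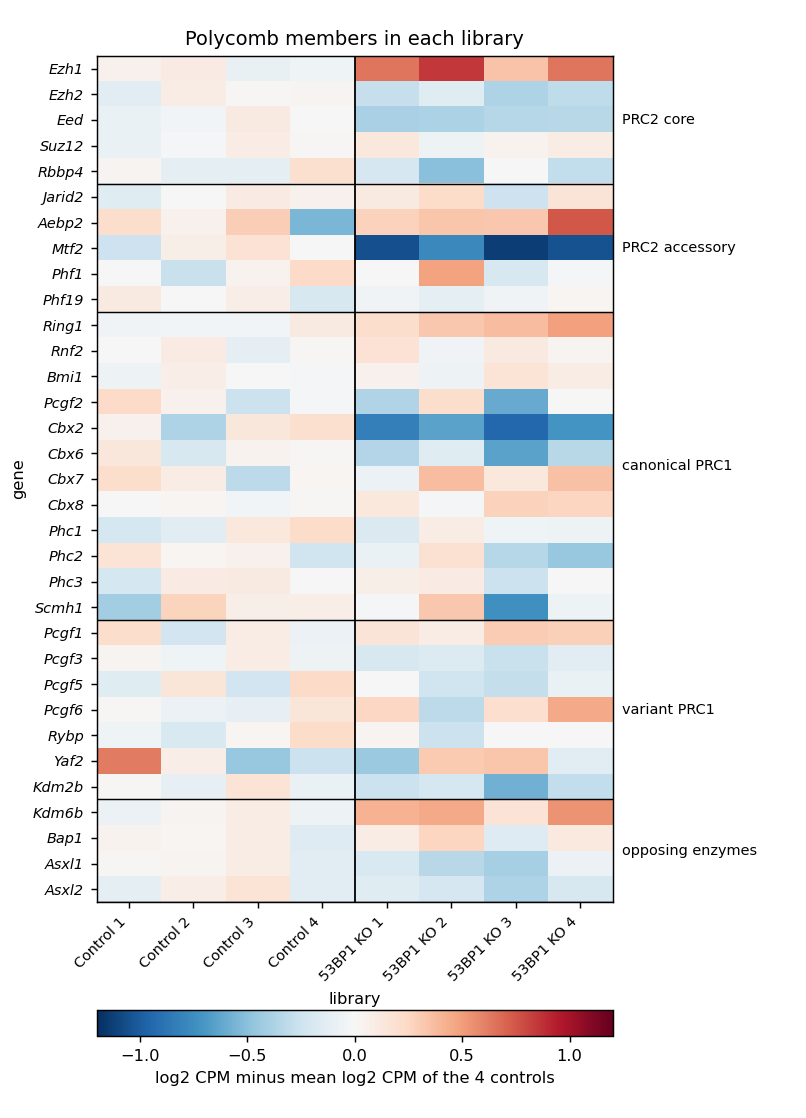
Each of the 33 Polycomb genes (rows, by role) in each of the 8 libraries (columns), as log2 CPM minus the mean log2 CPM of the 4 controls. Mtf2 and Cbx2 are low and Ezh1 is high in all 4 KO-labelled libraries, and most other rows are pale, with library-specific departures such as Aebp2 in control 4 and Scmh1 in KO-labelled 3.

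KO-labelled 3 had the lowest CPM of its group for 17 of the 33 genes and KO-labelled 2 the highest for 15, while among the controls no library was highest or lowest for more than 12. The like counts over all genes were not made, so this lean may not be particular to the Polycomb genes. The 24 genes that did not pass had log2 fold changes between -0.25 and 0.40, and 11 of these were positive and 13 negative. The same 9 genes passed with RLE size factors and with robust dispersion. Leaving out 1 library at a time gave between 1 and 3 rises and between 3 and 8 falls. Rises went from 3 to 1 without KO-labelled 4. Falls went from 6 to 3 without control 3 or KO-labelled 1. Over all genes the share called dropped in these fits too, from 30% to 21% without KO-labelled 4. It was 23.4% without control 3 and 22.7% without KO-labelled 1.

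A list of 52 other genes of the pathway, the partners of PRC1, PRC2, BAP1 and UTX, gave a like picture. Of 50 tested, 4 rose and 10 fell (28%, beside the 30% of all genes) and 36 did not pass, with a median log2 fold change of -0.07. Max, Fbrs and Uty were among those that rose. Max, a partner of the Pcgf6 complex, rose by 0.45 (adjusted p = 0.0232 by edgeR), a call lost when control 2 was left out (0.075) and, in turn, for KO-labelled 1, 3 and 4 (0.0819, 0.0523 and 0.0562). Fbrs, a partner of the Pcgf3 and Pcgf5 complexes, rose by 0.33 (adjusted p = 0.0317), a call that held only without control 3 or KO-labelled 3 among the libraries left out (adjusted p otherwise 0.0559 to 0.126) and was lost with upper-quartile scaling (0.052). The largest falls were in Tfdp1 (-0.86, SE 0.12), the dimerisation partner of E2F factors, Kdm6a, Scml4 (-0.77, SE 0.19) and Paxip1 (-0.63, SE 0.10), a subunit of the UTX complex. Rbbp7, the X-linked paralog of Rbbp4, fell from 113 ± 7.93 to 79.1 ± 10.6 CPM (-0.52, SE 0.10, adjusted p = 0.00176 by edgeR), with no overlap.

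Genes known as Polycomb targets moved both ways. Of 64 listed, 39 Hox genes and 25 others, 32 were expressed highly enough to be tested. Of these 5 rose and 7 fell (37.5%, beside 30%), with a median log2 fold change of -0.02. The largest falls were in Hoxd10 (-2.19, SE 0.41), Tbx3 (-1.92, SE 0.51) and Hoxb13 (-1.90, SE 0.27), and Hox genes that rose included Hoxa7 (1.34, SE 0.30) and Hoxa2 (1.01, SE 0.20). Except for Hoxa2 and Hoxb13 these genes had at most 2.31 CPM in any library, and Tbx3 had as few as 3 counts. Hoxd10 had 4 to 7 counts and Tbx3 3 to 9 counts in the KO-labelled libraries. Both passed the filter on low counts through the controls, so they could enter the test only as falls. Likewise Hoxa7, with 8 to 22 counts among controls, passed the filter only with the KO-labelled libraries. The share of targets called rests in part on such genes and does not measure targets as a set. The cell-cycle inhibitor genes Cdkn2a and Cdkn2b, singled out after their values were seen, also rose. Cdkn2b had 84.0, 81.5, 80.1 and 49.3 CPM among controls and 127.8, 93.1, 147.1 and 120.6 CPM in the KO-labelled set (0.73, SE 0.16, adjusted p = 0.00368 by edgeR), with no overlap. Cdkn2a rose by 0.48 (SE 0.13, adjusted p = 0.0144 by edgeR) from 14.0 ± 2.39 to 19.6 ± 2.26 CPM. The call of Cdkn2a was lost without control 2, control 3 or KO-labelled 4 (adjusted p up to 0.0567).

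Other features of the cells moved with the groups, and their part in the Polycomb differences was not tested. All 15 cell-cycle genes on a marker list fell, and their summed level was 5498 to 6736 CPM among controls, against 2813 to 3600 CPM in the KO-labelled set. Of 6 astrocyte genes 5 rose, with sums between 208.1 and 353.7 CPM and between 942.1 and 1088 CPM. Of 10 progenitor genes 6 rose and 2 fell, Nes (log2 fold change -0.90) and Vim (-0.39). Their sums overlapped, between 9859 and 11949 CPM and between 9485 and 12811 CPM. Most of each sum was Fabp7, at 6315 to 9392 CPM in a library, so the sums say little of the other progenitor genes. Fabp7, whose product the sorting dye binds, was at 7591 and 7793 CPM on average. The sort selects for that product, so this level does not check the cell type. Markers of mesenchyme summed to 30.1 to 77.9 CPM among controls, against 11.7 to 14.5 CPM in the KO-labelled set, with 3 of the 5 genes tested lower and Twist1 higher. Muscle markers summed to between 32.1 and 42.5 CPM and between 17.2 and 20.5 CPM, with 2 of 3 tested lower. Endothelial markers summed to at most 12.03 CPM in any library, with 1 of 2 tested lower. Microglial sums were at most 4.99 CPM and erythroid sums at most 2.25 CPM, with 1 gene tested on each list, neither of them called, and Hba-a1 at 0 counts in all libraries. Neuronal sums overlapped, between 398.8 and 522.6 CPM and between 368.1 and 445.2 CPM. Most of each was Map2, at 296.1 to 444.4 CPM in a library, which was not called, so these sums say little of the other neuronal genes. Of the 8 genes 2 were higher, Dcx (log2 fold change 0.91) and Tubb3 (0.68), and 2 lower, Snap25 (-1.16) and Syt1 (-0.83). Oligodendrocyte sums overlapped too, between 2640 and 2964 CPM and between 2446 and 2913 CPM, with 3 of 6 higher and 1 lower. In bulk RNA of this kind, fewer cells of a type and less RNA per cell cannot be told apart.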

How the data were processed

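RNA-seq libraries of sorted mouse neural progenitors (4 labelled 53BP1 KO, 4 labelled Control) were analysed. The authors deposited one table of raw read counts, whole numbers by gene symbol. Per the labels' protocols, libraries were stranded total RNA. Per the submitters' processing notes, CASAVA, HTSeq 0.6.1p1 and the builds mm9 and NCBIM37 were used. No aligner or strand setting is given in the sources used here. Columns were matched to samples by title.

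Low counts were removed with filterByExpr and libraries scaled with TMM. The main test was the quasi-likelihood F test in edgeR 4.0.16 (R 4.3.3), with group as its only term and Benjamini-Hochberg adjustment over all 15021 genes tested. The SE is the size of the log2 fold change divided by the square root of its F statistic. CPM are edgeR's normalised counts, scaled by the TMM-adjusted library size. Levels per kilobase divide CPM by the union of exons in GENCODE M21 (GRCm38), an assembly other than that of the counts, so they are approximate. Alternatives were DESeq2 1.42.0, limma 3.58.1 voom with quality weights, RLE and upper-quartile scaling, robust dispersion, 2 other filters, a replicate block and leaving out each library. The fit was tested on simulated counts. No pair of libraries in a group agreed within sampling noise (chi-square per degree of freedom at least 4.45). That lowest value was for controls 2 and 3, which were more alike than any other pair in a group (13.8 to 36.2).

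Every one of the 33 genes is accounted for. Those past the threshold have their values in all libraries. Of the other pathway genes, up to 4 rises and 4 falls are named, with Kdm6a, Uty and Rbbp7, and of the targets up to 3 each way. Some genes that this rule names are not reported here. The members and lists were chosen with earlier results of these data known.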

Additional observations from a re-analysis of the deposited data

Results flagged for a closer look

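Each group of 4 libraries was checked for a value far from the other 3, in 66 groups (33 genes, controls and KO-labelled libraries apart). Chance alone puts about 1 group in 20 past the limit used (the 95% critical value of Dixon's gap-to-range ratio), and 3 of 66 groups passed it. Aebp2 had 38.0 CPM in KO-labelled 4, against 27.5 to 28.6 CPM in the other KO-labelled libraries. Ring1 had 27.4 CPM in control 4, against 24.7 to 25.0 CPM in the other controls, which brings this control nearer to the KO-labelled libraries. Rybp had 38.2 CPM in KO-labelled 2, the shallowest library, against 45.7 to 46.8 CPM in the others.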

How the results depend on the processing

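Mtf2, Cbx2 and Ezh1 kept direction and call under all 16 alternatives, and Eed under all but the fit without a low-count filter. That fit tested 30508 genes and called 15.2% of them, against 30% in the main fit. Rises made up 62.1% of its calls, against 53.6% in the main fit. Its median log2 fold change over all genes was -0.13 (-0.19 with DESeq2, and within 0.04 of 0 otherwise). Without the filter the median of the 33 genes was 0.02 in place of -0.04, 2 Polycomb genes fell (0 in the PRC2 core, 1 in canonical PRC1, 0 in variant PRC1), 1 accessory gene of PRC2 rose, and 7 other pathway genes rose. Phf19 (0.0208), Phc1 (0.00842), Phc3 (0.0496), Rybp (0.0112) and Yaf2 (0.0199) turned positive there, and Rybp did with limma voom with quality weights (0.0312). Falls in variant PRC1 numbered 2 with upper-quartile scaling, 2 with limma voom and 0 with DESeq2, and falls among opposing enzymes 2, 2 and, with at least 1 CPM in 4 libraries, 1. That last filter left 4 falls among target genes. Trp53bp1 turned negative with RLE (-0.00188), upper-quartile scaling (-0.0234) and the 1 CPM filter (-0.00432). The cause was not tested.

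With 1 library left out, the count of Polycomb genes was 1 to 3 for rises and 3 to 8 for falls. The share of all genes called ran from 21% to 30.2% in these fits. By role, falls numbered 1 to 2 in the PRC2 core, 1 to 2 in canonical PRC1, 0 to 1 in variant PRC1 and 0 to 2 among opposing enzymes, and rises 0 to 1 in canonical PRC1 and 0 to 1 among opposing enzymes. Other pathway genes gave 2 to 5 rises and target genes 3 to 6. Ranges of log2 fold change that crossed 0 were -0.11 to 0.14 for Trp53bp1, -0.0768 to 0.14 for Phf1, -0.13 to 0.00500 for Phc1, -0.0876 to 0.0511 for Phc3, -0.12 to 0.0112 for Rybp, -0.26 to 0.0556 for Scmh1 and -0.18 to 0.22 for Yaf2.

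Correlations between the deviations of same-numbered libraries were 0.254, 0.279, -0.158 and 0.00987, in order of number. Pairs with unlike numbers ran from -0.319 to 0.154. Replicates 1 and 2 thus deviated together more than any pair with unlike numbers, and the other replicates did not. These values do not settle whether the numbers mark pairs, and the main fit did not use them as a pairing. With the replicate block 7 Polycomb genes passed, all among the 9 (Ezh2 at adjusted p = 0.0721 and Kdm2b at 0.0852 did not, nor did the pathway gene Fbrs at 0.0683), with 1 fall in the PRC2 core and 0 in variant PRC1, and Trp53bp1 was at -0.0108. Depth limits the weakest genes, where 3 counts are worth 0.126 to 0.261 CPM.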
